A study of Mus musculus with 4 samples.

Results

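The 10 regulators of the primitive streak and of mesoderm described here were the brachyury gene T, Mixl1, Gsc, Mesp1, Evx1, Tbx6, Kdr, Gata2, Tal1 and Hand1, chosen by symbol out of 37224 Ensembl gene identifiers in the deposited tables, and all 10 were found. The libraries came from mouse embryonic stem (ES) cells, which are cultured cells of the early embryo able to form every tissue of the body. There were 2 libraries of cells labelled normal, of wild-type genotype, and 2 of cells labelled Smg6 deficient, and all carried the tissue label Embryo. The labels name no strain, cell line, age, allele, culture condition or other agent for either group. Nothing in them tells whether replicates were separate cultures or clones. The p-values therefore rest on the spread among these libraries alone, which may be technical. Smg6 is an endonuclease of nonsense-mediated mRNA decay, the pathway that removes transcripts with a stop codon read as premature.

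The primitive streak is the furrow of the gastrulating embryo through which epiblast cells pass to become mesoderm and definitive endoderm. Nodal, Wnt and Bmp ligands induce it, T, Mixl1, Gsc, Evx1 and Mesp1 mark successive or neighbouring positions within it, and Tbx6, Hand1, Kdr, Tal1 and Gata2 mark mesoderm that leaves it for the somites, the lateral plate and extraembryonic tissues, and the blood and vessels. ES cells kept undifferentiated hold these genes at low levels, and a few cells of a culture can express them as they begin to differentiate. In these bulk libraries, fewer cells expressing a gene and less RNA of it per cell cannot be told apart.

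Total counts ran from 130888768 to 155391181 reads per library. Smg6 itself was counted 13396 and 14071 times in wild-type and 13366 and 11642 times in Smg6-deficient cells, and its log2 fold change of -0.21 did not pass the test (edgeR adjusted p = 0.089). Reads were summed over the whole gene, where a deletion of a few exons need not show, and the labels are not checked by this value. Pou5f1, a defining factor of ES cells, was abundant in both groups, at 890.9 ± 64.3 and 632.4 ± 0.70 CPM (mean ± SD, n = 2). CPM, or counts-per-million, is a gene's share of the TMM-scaled library size. Of 10 such markers 1 was higher and 8 were lower in Smg6-deficient cells, where Nanog fell by 2.04, Fgf4 by 1.30 and Dppa5a by 1.14 on the log2 scale, and Pou5f1 fell by 0.49. The call of Pou5f1 ended when tested on the deposited RPKM values (limma-trend adjusted p = 0.063).

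Of the 10 regulators, 7 passed the test of the difference between genotypes, in both directions. T, Mixl1, Hand1 and Kdr rose in Smg6-deficient cells, Gsc, Mesp1 and Gata2 fell, and Evx1, Tbx6 and Tal1 did not pass. A gene passed where the adjusted p of edgeR's quasi-likelihood test, by the Benjamini-Hochberg method over all 20895 genes tested, was under 0.05. Among all tested genes 39.7% passed, 20.5% higher and 19.2% lower. The regulators' libraries did not overlap between groups in 9 cases, 6 higher and 3 lower, against 73.2% of all tested genes, 37.3% higher and 35.9% lower. Mesp1 reached the minimum of 10 counts in the 2 wild-type libraries only, and Gsc in these and 1 Smg6-deficient library, so both entered the test through the group in which they were higher. Their calls are therefore no support for a difference. The median log2 fold change of the 10 was 0.69, and that of all tested genes was 0.008. Of the 9196 tested genes in the regulators' range of mean CPM, 30.2% passed, 12.1% higher and 18.0% lower. This range was wide, from a mean log2 CPM of -4.13 (Mesp1) to 2.48 (Gata2), while T, Kdr, Hand1 and Gata2 lay at 1.01 or higher. The share that passed among genes as abundant as those was not computed. Summed over the regulators, wild-type libraries held 2244 and 1865 counts, and Smg6-deficient ones 3055 and 2878.

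The number of regulators that passed was between 4 and 9 under other settings. It was 7 with DESeq2's size factors (39.8% of all tested genes passed), upper-quartile factors (39.8%), library size alone (40.2%), no filter beyond 1 count (26.0%), limma-voom (40.0%) and log2(RPKM + 0.1) (28.0%). In the DESeq2 Wald test (39.3%) and on log2(RPKM + 1) (28.0%) 5 passed. With at least 50 counts in 2 libraries required, 4 of the 6 still tested passed (44.6% of all genes, 23.0% lower). Without wild-type replicate 1 the number was 6 of 9 tested (48.7% of all genes, 22.8% lower), and without wild-type replicate 2 it was 9 of 9 (44.9%, 21.9% lower). Without Smg6-deficient replicate 1 it was 4 of 10 (23.8%, 10.8% lower), and without Smg6-deficient replicate 2 it was 5 of 10 (24.1%, 10.6% lower).

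**Figure D1:**
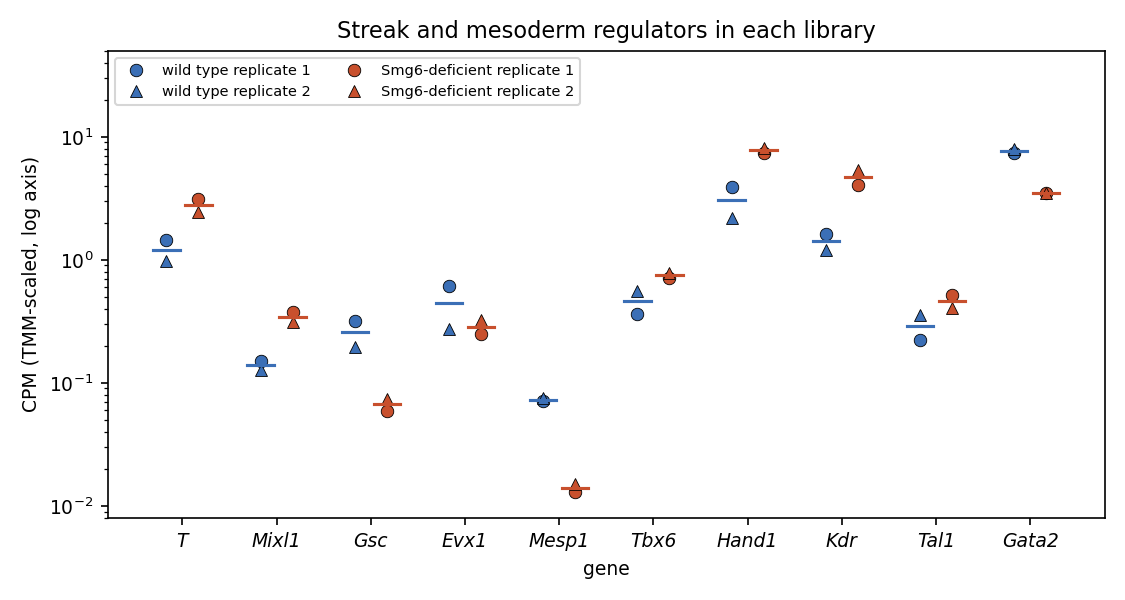
CPM of each regulator (horizontal axis) on a log axis in the 4 libraries, with wild-type libraries in blue and Smg6-deficient libraries in orange, circles for replicate 1, triangles for replicate 2 and a bar at each group's mean. T, Mixl1, Hand1 and Kdr sit higher and Gsc, Mesp1 and Gata2 lower in the Smg6-deficient libraries, while the Evx1 libraries overlap.

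The level of each gene per length was compared in the deposited RPKM values, which correct for gene length and library size. In wild-type cells Gata2 stood highest, at 1.95 and 1.98 RPKM, followed by Hand1 at 1.73 and 0.92 RPKM and T at 0.55 and 0.35 RPKM, and the libraries of these neighbours did not overlap. Tbx6, Gsc, Kdr and Evx1 came next with means from 0.22 to 0.135 RPKM and overlapped each with its neighbour, as did Tal1, Mixl1 and Mesp1, whose means were 0.055, 0.055 and 0.05 RPKM. In Smg6-deficient cells Hand1 stood highest at 3.19 and 3.29 RPKM. T, at 1.15 and 0.85 RPKM, and Gata2, at 0.89 and 0.85 RPKM, overlapped below it. Kdr followed at 0.48 and 0.60 RPKM and Tbx6 at 0.34 and 0.35 RPKM, then Mixl1, Tal1, Evx1, Gsc and Mesp1, of which only Tal1 and Evx1 overlapped as neighbours. Among the 20895 tested genes ranked by mean RPKM, Gata2 moved from percentile 44.4 in wild type to 34.3 in Smg6-deficient cells, Hand1 from 39.0 to 51.7 and T from 25.8 to 35.8. The other 7 stood at percentile 17.5 or lower in wild type and at 29.0 or lower in Smg6-deficient cells. For comparison on the same scale, Pou5f1 averaged 340.7 RPKM in wild-type cells.

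The streak genes proper comprised a T-box factor, 3 homeobox factors and a basic helix-loop-helix factor. T (ENSMUSG00000062327; GRCm38 chr17:8434423-8442496, plus strand), the T-box factor needed for posterior mesoderm and the notochord, was counted 201 and 131 times in wild-type and 476 and 328 times in Smg6-deficient cells. In CPM these were 1.44 and 0.979 against 3.12 and 2.43, so both Smg6-deficient libraries lay above both wild-type ones. The rise was 2.30-fold, or 1.20 on the log2 scale (SE 0.25, adjusted p = 0.0099 by edgeR), and T passed under each of the 14 alternative settings that were run. The 247 bases that end 4 bases before its annotated start are shown with those of Kdr and Gata2, the regulators other than Hand1 that also passed under each setting, so that a regulator of the streak, one of vessels and one of blood can be set side by side. They are from RefSeq (GRCm38.p6), written 5′ to 3′ on the strand of the gene, and lie at chr17:8434173-8434419 (plus strand), chr5:75978459-75978705 (minus strand) and chr6:88193641-88193887 (plus strand).
T: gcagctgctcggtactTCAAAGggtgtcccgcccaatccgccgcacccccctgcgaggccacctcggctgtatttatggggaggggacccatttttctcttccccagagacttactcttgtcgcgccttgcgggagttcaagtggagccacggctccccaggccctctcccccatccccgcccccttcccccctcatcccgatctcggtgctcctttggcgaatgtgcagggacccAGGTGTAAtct
Kdr: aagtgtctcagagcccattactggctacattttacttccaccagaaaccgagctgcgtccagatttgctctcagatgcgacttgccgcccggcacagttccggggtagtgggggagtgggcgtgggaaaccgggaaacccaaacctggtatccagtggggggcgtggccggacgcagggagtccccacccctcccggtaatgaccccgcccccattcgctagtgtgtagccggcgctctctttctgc
Gata2: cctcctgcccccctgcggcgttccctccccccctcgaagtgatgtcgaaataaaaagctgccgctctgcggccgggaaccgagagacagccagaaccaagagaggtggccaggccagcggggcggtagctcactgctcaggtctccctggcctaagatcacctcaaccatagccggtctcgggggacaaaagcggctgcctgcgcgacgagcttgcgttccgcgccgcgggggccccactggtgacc
Capitals mark matches on either strand to CTTTGA, bound by Tcf and Lef factors, AGGTGTNA, bound by T-box factors, or GATAAG, bound by Gata factors. The T window held a Tcf/Lef match (TCAAAG) that began 234 bases before the start and a T-box match (AGGTGTAA) that began 14 bases before it. The Kdr and Gata2 windows held none of the 3. In all 32851 RefSeq promoter windows of this length the Tcf/Lef letters were found in 13.7%, the T-box letters in 2.65% and the GATA letters in 6.49%. The E-box letters CANNTG, bound by basic helix-loop-helix factors, were not marked because 65.9% of windows held them. The T window held 3 of them, 1 of which overlapped the T-box match, the Kdr window 1 and the Gata2 window 0. Across the 8 regulators with an entry, all but Mixl1 and Hand1, the Tcf/Lef letters were found in 3 (T, Mesp1 with 2 matches and Tal1), the T-box letters in 1 (T) and the GATA letters in 0. The RefSeq starts of Mesp1 and Gsc lie within the GENCODE gene, and both Mesp1 matches fall inside that gene. Gata2 and Tal1 each had a second window, which lies inside the gene. A match describes the letters and is no evidence of binding, and the lack of one says nothing of a factor.

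Mixl1 (chr1:180693043-180697034), a homeobox factor of the streak that acts in endoderm and mesoderm formation, was counted 21 and 17 times in wild-type and 57 and 42 times in Smg6-deficient cells. The libraries did not overlap, at 0.150 and 0.127 CPM against 0.374 and 0.311 CPM. It rose 2.46-fold (log2 fold change 1.30, SE 0.33, edgeR adjusted p = 0.020). This call was lost without Smg6-deficient replicate 1 (adjusted p = 0.18) or replicate 2 (adjusted p = 0.077), in the DESeq2 Wald test (adjusted p = 0.084) and, narrowly, on log2(RPKM + 1) (limma-trend adjusted p = 0.0515).

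Gsc (chr12:104471209-104473330), the homeobox factor of the anterior streak and organizer, went the other way, with 45 and 26 counts in the wild-type and 9 and 10 in the Smg6-deficient libraries. Both Smg6-deficient libraries, at 0.059 and 0.074 CPM, lay below the wild-type ones at 0.321 and 0.194 CPM. It fell by 1.95 on the log2 scale (SE 0.43, edgeR adjusted p = 0.013), and the call was lost without Smg6-deficient replicate 1 (log2 fold change -1.78, adjusted p = 0.084).

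Mesp1 (chr7:79792241-79793788), the basic helix-loop-helix factor of the earliest mesoderm, including cardiac precursors, had 10 counts in each wild-type library and 2 in each Smg6-deficient library. The ratio of the summed counts, 20 against 4, was 5.25 in favour of wild type after scaling by library size, with a 95% counting interval from 1.76 to 21.1 (exact conditional binomial). This interval covers counting error only. It rests on the same counts that brought Mesp1 past the filter through the wild-type group, so it is no support for a difference. The log2 fold change of -2.32 (SE 0.59, edgeR adjusted p = 0.021) lost its call without Smg6-deficient replicate 1 (adjusted p = 0.21) or replicate 2 (adjusted p = 0.17) and in the DESeq2 Wald test (adjusted p = 0.19). On log2(RPKM + 1) its limma-trend adjusted p was 0.082. It was filtered out when either wild-type library was left out.

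Evx1 (chr6:52313498-52318378), the homeobox factor of the posterior streak, was the regulator whose groups overlapped. It had 85 and 37 counts in the wild-type and 38 and 44 in the Smg6-deficient libraries, so wild-type replicate 1, at 0.607 CPM, stood above the other 3, at 0.249 to 0.326 CPM. The difference, -0.63 on the log2 scale (SE 0.42), did not pass (edgeR adjusted p = 0.28). It depended on the wild-type library: the value was 0.06 without wild-type replicate 1 (adjusted p = 0.90) and -1.10 without wild-type replicate 2, where it passed (adjusted p = 0.019). The antisense gene Evx1os overlaps 1335 bases of Evx1 on the opposite strand and had 13 to 18 counts per library. Since strand was not marked by the kit, reads of the pair cannot be told apart. No other regulator overlapped an annotated gene.

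Tbx6 and Hand1 mark mesoderm after it leaves the streak. Tbx6 (chr7:126781483-126785560), the T-box factor that directs presomitic mesoderm, had 51 and 75 counts in the wild-type and 109 and 106 in the Smg6-deficient libraries. Both Smg6-deficient libraries, at 0.714 and 0.785 CPM, were above the wild-type ones at 0.364 and 0.560 CPM, yet the difference of 0.70 on the log2 scale (SE 0.29) did not pass (edgeR adjusted p = 0.096). It passed without wild-type replicate 2 (1.02, adjusted p = 0.017).

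Hand1 (chr11:57828705-57832818), a basic helix-loop-helix factor of lateral plate and extraembryonic mesoderm and of trophoblast giant cells, was counted 543 and 294 times in wild-type and 1134 and 1091 times in Smg6-deficient cells. The Smg6-deficient libraries were close to each other at 7.43 and 8.08 CPM, and the wild-type ones were further apart at 3.88 and 2.20 CPM, with no overlap. It rose 2.55-fold, or 1.35 on the log2 scale (SE 0.26, adjusted p = 0.0074 by edgeR), and passed under each of the 14 alternatives. Without wild-type replicate 1 the log2 fold change was 1.83 and without wild-type replicate 2 it was 0.98.

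Kdr, Tal1 and Gata2 act in the formation of blood and vessels. Kdr (chr5:75932827-75978458, minus strand), the receptor for vascular endothelial growth factor A and a surface marker of early mesoderm, had 228 and 161 counts in the wild-type and 620 and 725 in the Smg6-deficient libraries. These were 1.63 and 1.20 CPM against 4.06 and 5.37 CPM, so the lower Smg6-deficient library stood well above the higher wild-type one. The log2 fold change of 1.73 (3.33-fold, SE 0.23, edgeR adjusted p = 0.0018) was the highest of the 10.

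Tal1 (chr4:115056426-115071755), the basic helix-loop-helix factor that specifies blood precursors, was counted 31 and 48 times in wild-type and 79 and 55 times in Smg6-deficient cells. The libraries did not overlap, at 0.221 and 0.359 CPM against 0.518 and 0.407 CPM, but the difference of 0.68 on the log2 scale (SE 0.34) did not pass (edgeR adjusted p = 0.15). It passed without wild-type replicate 2 (1.04, adjusted p = 0.039).

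Gata2 (chr6:88193891-88207032, plus strand), a zinc finger factor of blood stem and progenitor cells that trophoblast also expresses, had 1029 and 1066 counts in the wild-type and 531 and 475 in the Smg6-deficient libraries. It stood at 7.35 and 7.97 CPM in wild-type and at 3.48 and 3.52 CPM in Smg6-deficient cells and the groups did not overlap. It fell by 1.13 on the log2 scale (SE 0.13, edgeR adjusted p = 0.0013) and passed under each alternative, with count-based values from -1.19 to -1.09.

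**Figure D2:**
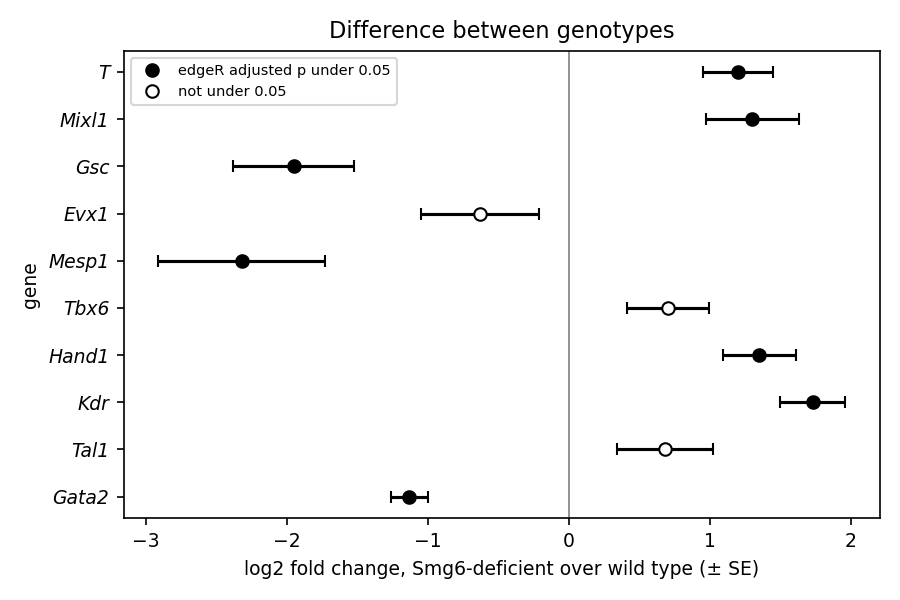
Log2 fold change of each regulator, Smg6-deficient over wild type, with its standard error; filled points passed the edgeR test and open points did not. Kdr is highest at 1.73 and Mesp1 lowest at -2.32, and the open points are Evx1, Tbx6 and Tal1.

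The wild-type replicates differed more from each other in these genes than the Smg6-deficient replicates did. The CPM of the wild-type replicates differed by more than 1.5-fold for 5 of the 10 regulators, and that of the Smg6-deficient replicates for 0. Evx1 (2.20-fold), Hand1 (1.77-fold) and Gsc (1.65-fold) were higher in wild-type replicate 1, while Tbx6 and Tal1 were higher in replicate 2. The median absolute log2 ratio between replicates was 0.58 in wild-type and 0.30 in Smg6-deficient cells. Over the 9196 tested genes in the same range of mean CPM it was 0.33 and 0.22. This difference in spread was not tested.

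**Figure D3:**
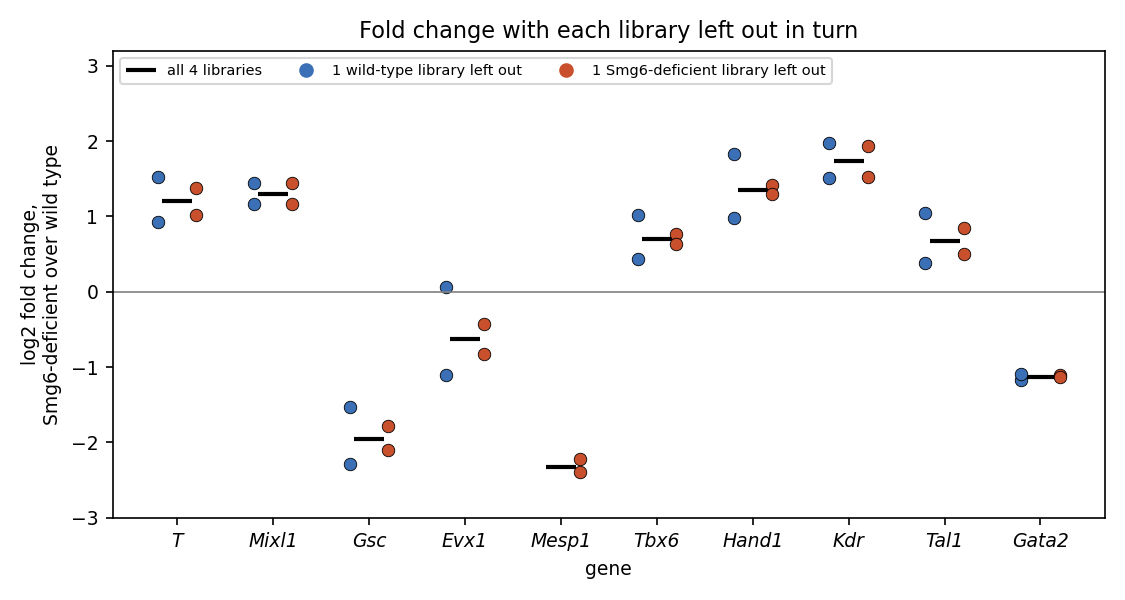
Log2 fold change of each regulator with all 4 libraries (black bar), with 1 wild-type library left out (blue points) and with 1 Smg6-deficient library left out (orange points). The direction stayed the same except for Evx1, which reached 0.06 without wild-type replicate 1; Mesp1 has no blue points because it was filtered out there.

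An exon junction well after the stop codon is a known trigger of nonsense-mediated decay. In GENCODE M21, 0 of the 10 had a transcript of the nonsense-mediated decay class, and 0 had an exon junction more than 50 nt after a stop codon, against 25.2% and 25.9% of 16455 tested coding genes. Their gene models ranged from the 2 exons of Mixl1 and Mesp1 to the 30 of Kdr. They lie on 8 chromosomes, and 0 of them is X-linked.

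The genes whose libraries lay closest to those of each regulator that passed were found by the distance between their 4 log2 CPM values, each centred on the wild-type mean. For Kdr these were Tbx20, a T-box factor of the heart (distance 0.085), and Col4a2, a collagen chain of basement membranes (0.146). Hand1 was nearest to Gpr39, a G protein-coupled receptor (0.101), and Slc24a3, an ion exchanger (0.151). Gata2 was nearest to Sgpp1, a sphingosine phosphate phosphatase (0.022), and Gm6444 (0.029). T was nearest to Bst1 (0.076) and Trabd2b (0.089), Mixl1 to D830039M14Rik (0.057) and Plekhg2 (0.062), Gsc to Gm9947 (0.161) and Tmem45b (0.227), and Mesp1 to Lrriq4 (0.065) and Vmn1r-ps151 (0.073). With a prior count of 5 in place of 1, both neighbours of Hand1 and Gata2 and 1 of those of Kdr were found again, and 0 of those of T, Mixl1, Gsc and Mesp1.

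Among the other genes of these programs, 34 of 98 tested were higher in Smg6-deficient cells (34.7%, against 20.5% of all tested genes) and 19 were lower (19.4%, against 19.2%), with a median log2 fold change of 0.09. The ligands that induce or pattern the streak were divided, with 4 of 12 higher and 5 lower and a median of -0.46. Wnt8a, a Wnt ligand of the early posterior epiblast, rose from 1.46 ± 0.207 to 9.89 ± 2.11 CPM, by 2.76 on the log2 scale (SE 0.21, adjusted p = 3.0e-04 by edgeR), and Bmp2 rose from 1.08 ± 0.48 to 9.84 ± 2.76 CPM. Fgf4, a growth factor of pluripotent cells, fell from 391.8 ± 30.2 to 159.2 ± 11.5 CPM. The Nodal, Wnt and Bmp ligands thus did not move together. Nodal fell by 0.60 on the log2 scale (edgeR adjusted p = 0.0048), Wnt3a by 1.62, Bmp7 by 1.08 and Fgf8 by 1.25. Wnt3 and Bmp4 passed in the other direction, by 1.08 and 1.65. Of 7 tested secreted antagonists 3 were higher and 2 lower. The Wnt antagonist Dkk1 rose by a log2 fold change of 4.07, from 0.714 and 0.403 CPM to 5.95 and 13.0 CPM, the Bmp antagonist Noggin (Nog) rose by 2.41, and the Wnt antagonist Sfrp1 fell by 1.97 on the log2 scale.

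Receptors and effectors of these ligands mostly did not pass, with 4 of 17 higher, 1 lower and a median of -0.07. Lef1, a transcriptional effector and target of Wnt signalling, rose from 8.65 ± 0.62 to 22.0 ± 2.77 CPM (log2 fold change 1.35, edgeR adjusted p = 6.3e-04). The Wnt receptor genes Fzd7 and Lrp6 rose by 0.43 and 0.38, and these calls were lost without Smg6-deficient replicate 1 (adjusted p = 0.11 and 0.056) and, for Lrp6, replicate 2 (adjusted p = 0.11). For Fzd7 the limma-trend adjusted p was 0.12 on log2(RPKM + 1) and 0.13 on log2(RPKM + 0.1). Of 8 genes listed as direct Wnt targets 5 were higher, 0 lower, and the median was 1.10. Besides Lef1, which is on both lists, Sp5, a zinc finger factor, rose by 1.55, and Cdx1, a homeobox factor of posterior identity, by 1.26. The call of Cdx1 was lost without Smg6-deficient replicate 2 (1.03, adjusted p = 0.062).

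Of 9 other streak factors 3 were higher and 2 lower, with a median of -0.31. Foxa2, a factor of the anterior streak that extraembryonic endoderm also expresses, rose from 0.70 ± 0.086 to 8.56 ± 3.56 CPM, and Sp5 is counted here too. Eomes, a T-box factor of the early streak and of trophoblast, went down from 13.5 ± 3.70 to 5.05 ± 0.612 CPM, a log2 fold change of -1.42 (SE 0.21, adjusted p = 0.0027 by edgeR). T and Eomes, both T-box genes, thus differed in direction between the same libraries. Of 8 tested paraxial mesoderm genes 5 were higher, 0 lower, and the median was 1.46. Hes7, among the 5, had 8 and 8 counts in the wild-type and 34 and 48 in the Smg6-deficient libraries. It thus entered the test through the group in which it was higher, and its call is no support for a difference. Msgn1, with 6 and 6 counts against 0 and 1, had too few to test. Tcf15, a basic helix-loop-helix factor of somites, rose from 7.73 ± 0.92 to 23.8 ± 4.18 CPM. Dll3, a Notch ligand of the presomitic mesoderm, and the receptor Pdgfra rose by 1.29 and 2.26 on the log2 scale. Pdgfra is also expressed in extraembryonic endoderm.

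In the lateral plate and cardiac list 1 of 9 was higher and 2 lower, with a median of 0.32. Tbx20 rose by 1.70, while Myl7 and Tnnt2, contractile protein genes of the heart, fell by 1.22 and 0.85 on the log2 scale. Tnnt2 lost its call without Smg6-deficient replicate 1 (adjusted p = 0.26) or replicate 2 (adjusted p = 0.090) and, narrowly, in the DESeq2 Wald test (adjusted p = 0.0541). In the blood and endothelial list 4 of 13 were higher and 6 lower, with a median of -0.30. Sox7, an endothelial factor that extraembryonic endoderm expresses as well, rose from 3.86 ± 1.33 to 22.6 ± 9.44 CPM. Kit, a receptor of blood progenitors and germ cells, fell from 106.1 ± 9.73 to 43.1 ± 1.75 CPM, and Pecam1, an adhesion molecule of endothelium that ES cells also carry, fell from 131.1 ± 12.4 to 64.6 ± 5.60 CPM.

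The VEGF ligands and the other VEGF receptors had 5 of 8 members higher and 1 lower, with a median of 0.70. Vegfa, the ligand named above for Kdr, did not pass, at 144.1 ± 5.95 and 125.6 ± 9.39 CPM (log2 fold change -0.20, edgeR adjusted p = 0.12). Vegfc, a ligand of Flt4 and Kdr, rose from 8.80 ± 2.58 to 26.9 ± 2.45 CPM, by 1.61 on the log2 scale (SE 0.20, adjusted p = 0.0015 by edgeR). The receptor Flt1 rose from 17.6 ± 3.70 to 37.4 ± 3.07 CPM and the receptor Flt4 from 6.49 ± 0.80 to 11.4 ± 0.16 CPM. Kdr therefore rose beside both of its sister receptors. Of 10 genes of the epithelial to mesenchymal transition 3 were higher, 0 lower, and the median was 0.25. Zeb2 rose by a log2 fold change of 0.79, Snai1, a repressor of epithelial genes that acts in the streak, by 0.91, and Cdh2, N-cadherin, by 0.71. Cdh2 did not pass on log2(RPKM + 1) (limma-trend adjusted p = 0.10) or log2(RPKM + 0.1) (adjusted p = 0.13). The epithelial genes Cdh1, E-cadherin, (log2 fold change -0.04, edgeR adjusted p = 0.76) and Epcam (-0.20, adjusted p = 0.13) did not pass. Since this list holds both epithelial and mesenchymal genes, its median has no single direction of transition.

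**Figure D4:**
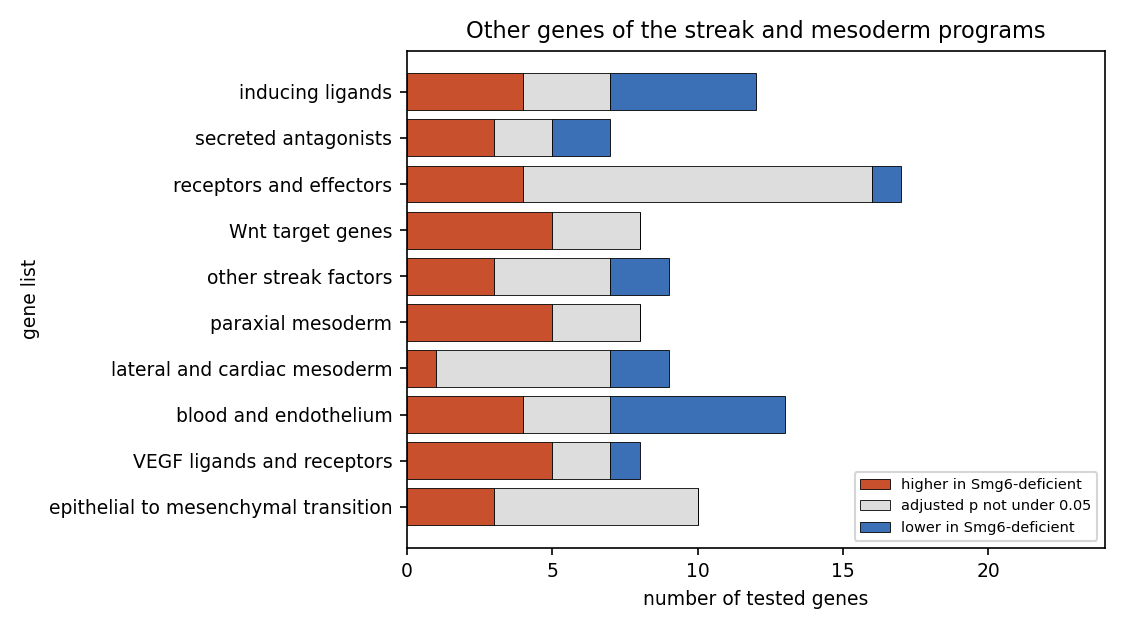
Number of tested genes in each list of the streak and mesoderm programs that were higher (orange), lower (blue) or not past the edgeR threshold (grey) in Smg6-deficient cells. Wnt targets and paraxial mesoderm have 5 of 8 higher and 0 lower, whereas ligands, blood and endothelium have genes in both directions. Some genes stand on more than 1 list, and the paraxial gene Hes7 passed the filter through the Smg6-deficient group only.

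Markers of other cell types moved between the same libraries, and their part in the values of the regulators was not tested. Of 16 extraembryonic endoderm markers 13 were higher (81.2%, against 20.5% of all tested genes) and 2 lower (12.5%, against 19.2%). The markers summed to 784 and 674 CPM in the wild-type and 2300 and 3440 CPM in the Smg6-deficient libraries. Most of each sum came from Sparc, Col4a1 and Lama1. Their means were 416.0, 198.6 and 65.3 CPM in wild-type and 793.9, 816.8 and 804.1 CPM in Smg6-deficient cells. Ttr, among the 13, had 5 and 0 counts in the wild-type and 57 and 13 in the Smg6-deficient libraries. It entered the test through the group in which it was higher, so its call is no support for a difference. Afp fell by 1.69 and Hnf4a by 1.13 on the log2 scale. Cubn rose by a log2 fold change of 4.95, Gata4 by 3.97, Lama1 by 3.62, Col4a1 by 2.04 and Sparc by 0.93. The endoderm sum was higher in Smg6-deficient replicate 2 than in replicate 1. So was the CPM of Gsc, Mesp1, Evx1, Tbx6, Kdr, Gata2 and Hand1, while T, Mixl1 and Tal1 stood lower in replicate 2. Several of these differences were slight. Mesp1 had 2 counts in each of these replicates, Gsc had 9 and 10, and Gata2 stood at 3.48 and 3.52 CPM. The largest in either direction were Kdr, at 4.06 and 5.37 CPM, and T, at 3.12 and 2.43 CPM. Between these replicates 0 of the 10 regulators differed by more than 1.5-fold, and a relation to the endoderm sum was not tested. Of 10 tested trophoblast markers 3 were higher and 5 lower, with sums of 189 to 266 CPM in wild-type and 311 to 331 CPM in Smg6-deficient cells. Krt18 rose by 1.66, from 43.2 ± 9.37 to 136.5 ± 1.34 CPM, and Krt8 by 1.88, from 20.1 ± 5.03 to 74.0 ± 2.20 CPM. The rise of the sum came from these keratins. Without them the sum was lower in both Smg6-deficient libraries than in either wild-type library. The most abundant marker then left was Tfap2c, at 138.7 and 94.3 CPM in wild-type and 83.3 and 64.5 CPM in Smg6-deficient cells. Cdx2, also among the 3 that were higher, rose by 1.47 on the log2 scale (SE 0.41, edgeR adjusted p = 0.029). It stood at 0.993 and 0.374 CPM in wild-type and at 1.99 and 1.82 CPM in Smg6-deficient cells. Elf5 was counted at 40 and 30 in the wild-type and 11 and 9 in the Smg6-deficient libraries. Like Gsc, it entered the test through the wild-type group, so its call is no support for a difference. Tpbpa and Prl3d1, markers of the placental trophoblast, had too few counts to test. Tfap2c fell by 0.66 on the log2 scale, as Eomes did by 1.42. The call of Tfap2c ended under 5 of the 14 alternatives, among them without wild-type replicate 1 (-0.34, adjusted p = 0.054) and likewise without replicate 2 of the Smg6-deficient cells (-0.47, adjusted p = 0.081).

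Erythroid markers were near absent, with sums of 1.78 to 2.66 CPM over all libraries. The globin genes Hbb-bh1, Hbb-y, Hba-x and Hba-a1 had too few counts to test. Of the 4 tested, Epor, the erythropoietin receptor, rose by 1.48, while Alas2, at -0.36 on the log2 scale, did not pass (edgeR adjusted p = 0.40). Alas2 passed without wild-type replicate 1 (-0.71, adjusted p = 0.034) and was 0.09 without wild-type replicate 2. Fibroblast markers, the mark of feeder cells, had 3 of 10 higher and 0 lower, with sums of 1130 and 844 CPM in the wild-type and 1380 and 1260 CPM in the Smg6-deficient libraries. Fbn1 rose by 0.73. Pdgfrb (log2 fold change 0.56) and Col1a1 (0.49) lost their calls under 7 and 8 of the 14 alternatives, among them leaving out Smg6-deficient replicate 1 (adjusted p = 0.065 and 0.12) and scaling by library size alone (adjusted p = 0.061 and 0.070). Col1a2 did not pass (0.37, edgeR adjusted p = 0.065) but passed in the DESeq2 Wald test (0.35, adjusted p = 0.044) and without wild-type replicate 1 (0.58, adjusted p = 3.9e-04).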

How the data were processed

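RNA-seq of 2 wild-type and 2 Smg6-deficient ES cell libraries was used. Total RNA was prepared with a TruSeq v2 kit, which does not mark strand, and sequenced as single reads on a HiSeq instrument, per the labels' protocols. The submitters' processing notes name TopHat2 2.0.9 and mm10. The read counter, the annotation release and the gene lengths behind the RPKM values were not given in the sources used here. The authors deposited whole-number read counts and RPKM values per Ensembl gene. No 2 libraries were identical, and replicate counts differed beyond sampling noise (chi-square over its degrees of freedom, 56.7 in wild type and 32.1 in Smg6-deficient cells).

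GENCODE M21, on GRCm38 (mm10), supplied gene symbols and positions. It gave symbols for 95.2% of identifiers and for all 162 listed genes. After filterByExpr (minimum count 10) and TMM scaling, the quasi-likelihood test of edgeR 4.0.16 was run in R 4.3.3, with genotype as the only term. The standard error of each log2 fold change was its size over the root of its F statistic. The fit was first tested on simulated data. Groups came from the sample titles. Alternatives were other scalings and filters, DESeq2 1.42.0, limma 3.58.1 (voom, and trend on log2(RPKM + 1) or log2(RPKM + 0.1), scales that understate changes of low genes), the replicate block and leaving out each library. A group left with 1 library is assumed to vary like the other group.

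The regulators and lists were chosen with earlier results of these data known. Named genes were all regulators, Smg6, up to 3 members of each list with the smallest adjusted p among those past the threshold (where fewer than 2 passed, up to 2 of highest mean log2 CPM), the 2 most abundant of each cell type list, and the 2 genes nearest to each regulator that passed. Dkk1 values per library, the untested globin and trophoblast genes and Elf5 were added after their values were seen. The same holds for Hes7, Msgn1, Ttr, Afp, Hnf4a, Vegfa, Cdh1, Epcam, Nodal, Wnt3, Wnt3a, Bmp4, Bmp7, Fgf8 and Cdx2.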

Additional observations from a re-analysis of the deposited data

How the results depend on the processing

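T, Hand1, Kdr and Gata2 kept their calls under each alternative, with log2 fold changes on counts of 0.93 to 1.52, 0.98 to 1.83, 1.51 to 1.98 and -1.19 to -1.09. The calls of Mixl1 and Mesp1 were lost without either Smg6-deficient library, and that of Gsc without the first. Counting limits these low genes: the 95% Poisson interval of the 2 Mesp1 counts in a Smg6-deficient library is 0.242 to 7.22. With at least 50 counts in 2 libraries required, 1 regulator was lower, since Gsc and Mesp1 were then not tested. Leaving out 1 library gave 1 to 3 lower regulators. The log2 fold change of Evx1 was 0.06 without wild-type replicate 1, and -1.10 without wild-type replicate 2, and the cause was not tested. Over all genes, leaving out 1 library gave 2805 to 5578 higher and 2300 to 4899 lower genes, and 12 to 23 lower genes in the other streak and mesoderm lists. The lowest of these counts came without Smg6-deficient replicate 1 (2805 higher) or replicate 2 (2300 lower, and 12 lower in those lists). Limma-trend called 2700 genes higher on log2(RPKM + 1) and 2643 on log2(RPKM + 0.1), where the cause was not tested. Scaling by library size alone gave 3761 higher and 4629 lower genes, and by upper-quartile factors 3949 and 4367, against 4285 and 4004, with 4 higher and 3 lower regulators in each. With the replicate number as a block (replicate block), 5 regulators were higher and 3 lower, Tbx6 being added (0.72, adjusted p = 0.0495), and 5074 and 4613 over all genes (46.4%). In the other lists 38 were higher and 24 lower. Col1a2 also passed there (0.38, adjusted p = 0.0085). Deviations of same-numbered libraries correlated at 0.148 across 20895 genes and at 0.196 across the 12341 genes of mean log2 CPM of at least 2 (genes are not independent replicates). The labels name nothing that a number shares and there are only 2 pairs, so the numbers were not taken as pairs. Of 58 other genes named by rule, 42 had the same call under every alternative that gave a value.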
